A study of Callithrix jacchus with 6 samples.

Results

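Collagens and laminins are the structural chains of the extracellular matrix, and 50 genes for such chains were followed here through the cell classes of the hippocampus of aged common marmosets (Callithrix jacchus). A gene was a member where its symbol in the deposited feature list was COL or LAM followed by a chain number and a chain letter and number. This took 39 collagen and 11 laminin genes out of 29320 features, and all 50 had at least 1 unique molecular identifier (UMI, a count of a captured RNA molecule). Their totals ran from 7 UMIs (COL8A2) to 81165 (COL25A1). COL27A1 (11124 UMIs) and COL6A2 (1349 UMIs) carried a symbol only in the gene name table, fell outside the rule and were not followed. COL6A1, COL7A1 and COL18A1 were not analysed here.

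The labels name 2 groups, hippocampi with oxygen (control) and hippocampi with sevoflurane, an inhaled general anaesthetic, both at 6 h, with 3 single-cell libraries each. They do not say whether 6 h is the length of exposure or a time after it. The labels give no age in years, sex, anaesthetic dose or recovery time, and they do not say that the libraries came from separate animals, so p-values measure the spread between these libraries. All 6 suspensions were made with collagenase II, an enzyme that cuts collagen protein, and were frozen before library preparation, so both groups share these steps. The series title poses the question for FKBP5 in microglia, and the matrix chains were read from the same libraries.

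Collagen chains wind together into a triple helix. Fibrillar collagens form the cables of connective tissue, collagen IV forms the sheet of basement membranes, and other collagens decorate fibrils, form beaded filaments or stay anchored in the cell membrane. A laminin is a cross of an alpha, a beta and a gamma chain, and it starts basement membrane assembly by binding integrins and dystroglycan. In the brain, interstitial matrix is sparse and basement membranes lie around vessels and under the meninges, where endothelial cells, mural cells, fibroblasts and astrocyte endfeet meet.

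The libraries held 7103 to 8577 barcodes and 41164947 to 47886816 UMIs, with a median of 3269 to 4843 UMIs per barcode, and any 2 libraries shared 13 to 27 barcode sequences. After 2238 barcodes had been marked as doublets, 44344 cells remained in 35 clusters, of which 26 were named as 13 classes from marker genes, with the collagen and laminin genes left out of the clustering. Classes with 10 or more cells in each library were compared, and there were 9. These were fibroblast-like (434 cells), endothelial-like (745), ependymal-like (1239), oligodendrocyte-precursor-like (OPC-like, 1950), oligodendrocyte-like (8109), astrocyte-like (4922), microglia-like (1838), GABAergic neuron-like (3769) and glutamatergic neuron-like cells (16510). Mural-like (124), border-associated macrophage-like (54), choroid plexus epithelial-like (522, of which 504 in sevoflurane replicate 1) and Cajal-Retzius-like cells (52) were described only with libraries pooled.

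Sevoflurane replicate 3 stood apart. Its glutamatergic neuron-like cells came mostly from clusters 14 (1145 cells) and 16 (1135 cells), and it held 0 cells of cluster 9, where the other libraries held 291 to 3052. It also held 1004 of the 1106 cells of oligodendrocyte-like cluster 11, and 10 ependymal-like cells. Sevoflurane replicate 2 held 13 fibroblast-like cells, against 48 to 168 in the other libraries, and 53 endothelial-like cells. Of the 18 fibroblast markers measured, 15 had UMIs in fibroblast-like cells (ISLR, MFAP4 and TCF21 were at 0), and 9 were detected in at least 10% of them. The microglia-like name rested on 4 markers detected in this way. GABAergic cluster 3 was named on 4 markers at a score of 0.253, near the limit of 0.25, and glutamatergic cluster 7 at 0.272. Mural-like, Cajal-Retzius-like and border-associated macrophage-like cells also had markers of their own lists at 0.

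Levels are given as CPM, the UMIs of a chain per 1000000 UMIs of its class in a library, and they are compared between classes for the same chain only. Of the 50 chains, 42 had enough UMIs to be ranked over the 9 classes. A top, second or next class is the one among these 9, and the classes described only with libraries pooled lie outside that order. In edgeR's quasi-likelihood test with the library as a block, 25 of the 42 were higher in their top class than in each of the other 8 at an adjusted p under 0.05. The same held for 40.9% of the 12548 genes ranked, and a gene could be ranked through the class where it was high, so this count says little of the chains alone. The median pair of classes differed in 48.7% of genes.

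Fibroblast-like cells were the top class of 20 of the 42 chains (47.6%), and 12 of these (28.6% of 42) were separated from every other class. Over all ranked genes these shares were 13.5% and 1.51%. Endothelial-like cells were top for 6 chains and separated for 2 (background 18.5% and 5.54%), OPC-like cells for 5 and 3 (4.75% and 2.03%), and ependymal-like cells for 5 and 4 (15.9% and 8.73%). GABAergic neuron-like cells were top and separated for 3 (6.26% and 2.51%), glutamatergic neuron-like cells top for 2 and separated for 0 (7.22% and 4.52%), and oligodendrocyte-like cells top and separated for 1 (9.33% and 4.89%). Astrocyte-like and microglia-like cells were the top class of no ranked chain (background 7.82% and 16.7%, separated 4.11% and 7.05%). The normalisation lowered fibroblast-like cells against the other classes by 0.18 (endothelial-like) to 0.58 (glutamatergic neuron-like) on the log2 scale, and scaling by total UMIs separated 27 chains. With a library left out, 20 to 26 chains were separated, and 6 of the 25 lost their separation in at least 1 such fit. COL25A1 lost it without control replicate 2, control replicate 3 or sevoflurane replicate 1, and COL9A2 without control replicate 1, control replicate 2 or sevoflurane replicate 1. COL6A6 lost it without control replicate 3, sevoflurane replicate 1 or sevoflurane replicate 2, and LAMA4 without control replicate 3, sevoflurane replicate 1 or sevoflurane replicate 3. COL4A4 lost it without sevoflurane replicate 1 or 3, and COL9A3 without sevoflurane replicate 1. The top class itself changed for LAMB3 without control replicate 2, control replicate 3 or sevoflurane replicate 1, for COL4A1 and COL23A1 without control replicate 2, for COL14A1 without control replicate 3 and for LAMA3 without sevoflurane replicate 2, and none of these 5 chains was separated with all libraries.

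**Figure D1:**
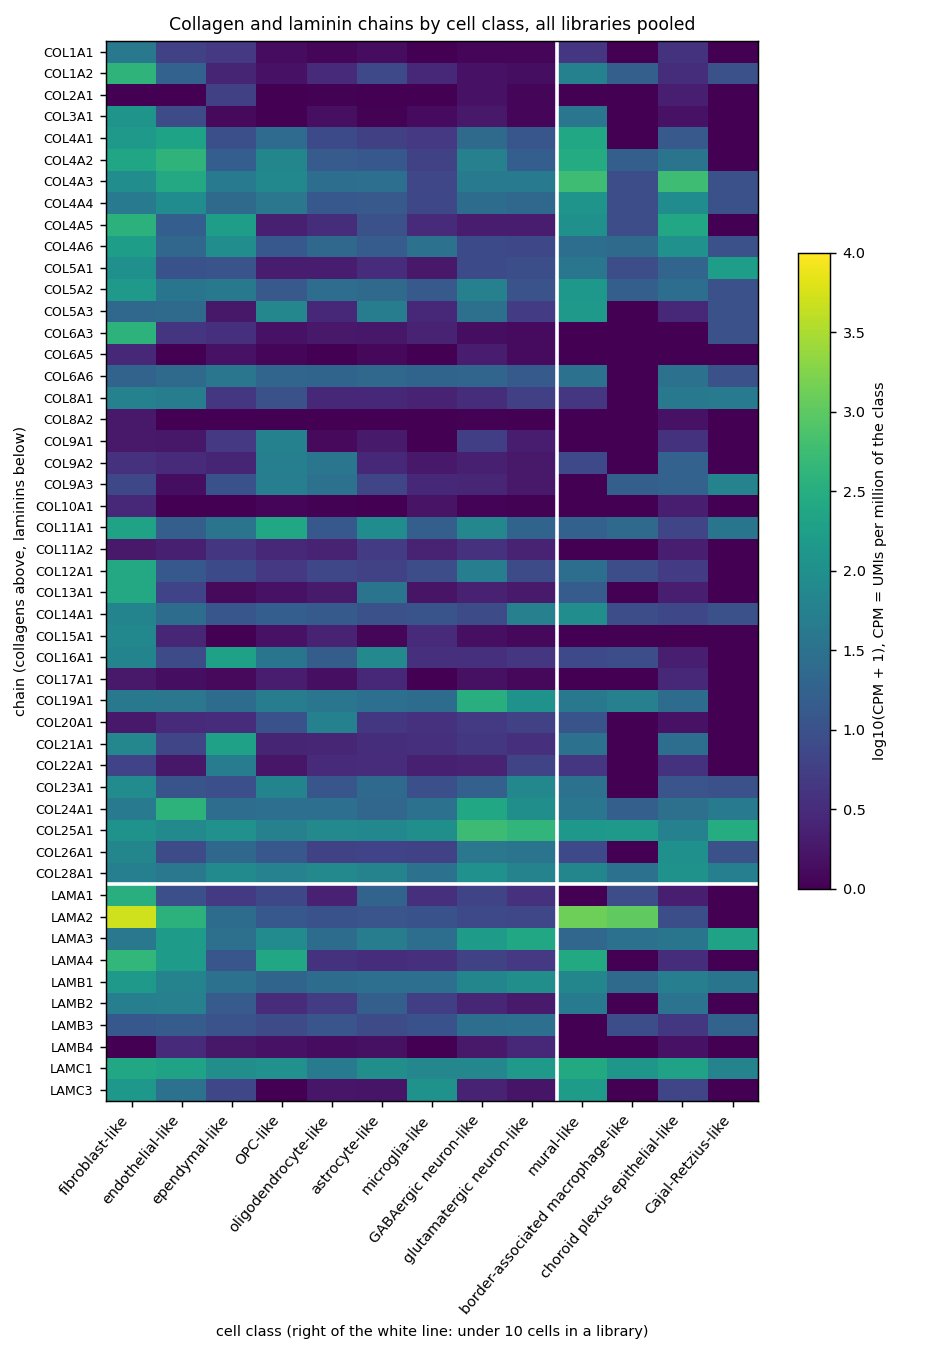
Level of 49 of the 50 chains (rows, collagens above and laminins below the white line) in 13 cell classes (columns), as log10(CPM + 1) with the 6 libraries pooled. Classes right of the vertical line had fewer than 10 cells in at least 1 library. The fibroblast-like column is the brightest for LAMA2 and COL6A3, and the OPC-like column for COL9A1 and COL11A1.

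Among the fibrillar collagens, COL1A2 and COL3A1 marked fibroblast-like cells. COL1A2, a chain of collagen I, stood at 177 to 461 CPM there (median 355; mean 357 ± 104, SD, n = 6), with its lowest value in sevoflurane replicate 2. Of the ranked classes, endothelial-like cells came next at 9.78 to 23.2 CPM, a log2 difference of 4.34 ± 0.31 (SE; edgeR adjusted p = 1.5e-16). COL3A1, the chain of collagen III, reached 59.0 to 140 CPM in fibroblast-like cells against at most 11.6 CPM in endothelial-like cells (log2 difference 3.84 ± 0.41, edgeR adjusted p = 1.81e-10). The 2 classes did not overlap for either chain. Mural-like cells, which were not ranked, held 2.27% of the COL1A2 and 5.14% of the COL3A1 UMIs. With no test, their pooled level of both chains was above the endothelial-like one, on few UMIs. COL1A1, the partner of COL1A2, had 111 UMIs in all and was too sparse to rank, with 40.4 CPM in fibroblast-like cells pooled and 0 UMIs there in sevoflurane replicate 2.

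The collagen V chains, which seed fibrils, did not share a class. COL5A1 was top in fibroblast-like cells (median 82.5 CPM, range 0 to 153) and was separated from the next class, ependymal-like cells (mean 17.0 CPM; log2 2.82 ± 0.42, edgeR adjusted p = 1.65e-07). Its 0 came from sevoflurane replicate 2, where 3 UMIs would have been 88.6 CPM. Pooled Cajal-Retzius-like cells held COL5A1 at 175 CPM (95% Poisson interval 107 to 270), from 20 UMIs. COL5A2 was also top in fibroblast-like cells among the ranked classes, at 118 to 161 CPM (mean 139 ± 15.1, SD, n = 6). GABAergic neuron-like cells were next at a mean of 55.5 CPM (log2 0.93 ± 0.23, edgeR adjusted p = 0.000719). At a clustering resolution of 0.5, COL5A2 lost its separation. Mural-like cells, which were not ranked, held 0.900% of the COL5A2 UMIs. With no test, their pooled level lay within the fibroblast-like range. COL5A3 was instead top in OPC-like cells (55.3 to 93.6 CPM, median 71.1), which were not separated from astrocyte-like cells (34.8 to 73.7 CPM; log2 0.54 ± 0.32, edgeR adjusted p = 0.192). Pooled mural-like cells held COL5A3 at 147 CPM (107 to 197).

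COL11A1, a fibril-nucleating chain best known from cartilage, was top in OPC-like cells at 140 to 283 CPM (median 242), with the lowest value in sevoflurane replicate 3. Fibroblast-like cells overlapped them at 88.6 to 315 CPM, and the difference was not called (log2 0.69 ± 0.33, edgeR adjusted p = 0.116). COL24A1, a fibrillar chain described in developing bone and cortex, was held by endothelial-like cells at 138 to 747 CPM (median 307) and by GABAergic neuron-like cells at 142 to 345 CPM (median 253). These 2 classes were not separated (log2 0.12 ± 0.30, edgeR adjusted p = 0.762). At least 1 COL24A1 UMI was found in 29.8% of endothelial-like cells thinned to 1000 UMIs each (47.9% unthinned), against 1.92% of astrocyte-like cells (5.04% unthinned), the class with the lowest share. COL2A1 and COL11A2 were too sparse to rank, at no more than 4.65 and 3.90 CPM in any pooled class.

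Of the 6 collagen IV chains of the basement membrane, COL4A1, COL4A2, COL4A3 and COL4A4 were top in endothelial-like and next in fibroblast-like cells, and COL4A5 and COL4A6 were top in fibroblast-like and next in ependymal-like cells. COL4A1 and COL4A2 are the chains of the common vascular network. COL4A1 stood at 63.4 to 537 CPM (median 214) in endothelial-like and 53.2 to 679 CPM (median 134) in fibroblast-like cells, and COL4A2 at 136 to 860 CPM (median 363) and 173 to 974 CPM (median 200). The 2 classes were not separated for either chain (log2 0.81 ± 0.45, edgeR adjusted p = 0.204, and 0.94 ± 0.45, adjusted p = 0.125). The fibroblast-like maxima of both came from sevoflurane replicate 2, on 23 and 33 UMIs. In pooled mural-like cells, which share that membrane, COL4A1 was at 237 CPM and COL4A2 at 287 CPM.

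COL4A3 and COL4A4, the chains of the glomerular network in kidney, were separated in endothelial-like cells. COL4A3 was measured at 169 to 313 CPM (median 226; mean 239 ± 56.1, SD, n = 6) in every endothelial-like library, against 29.5 to 181 CPM in fibroblast-like cells (log2 1.61 ± 0.28, edgeR adjusted p = 6.36e-06). Libraries pooled, with no test, it was at 575 CPM (492 to 667) in mural-like and 570 CPM (535 to 607) in choroid plexus epithelial-like cells. The COL4A3 share of endothelial-like cells with a UMI was 16.2% thinned (31.3% unthinned), against 0.629% of microglia-like cells (1.09% unthinned). COL4A4 followed at 25.6 to 111 CPM (median 91.2; log2 over fibroblast-like 1.08 ± 0.32, edgeR adjusted p = 0.0089). Mural-like and choroid plexus epithelial-like cells, which were not ranked, held 0.658% and 2.82% of its UMIs. With no test, its pooled level in mural-like cells was above the endothelial-like one, on few UMIs.

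COL4A5 and COL4A6 pair in epithelial and smooth muscle membranes. COL4A5 was at 260 to 502 CPM (median 429) in fibroblast-like and 131 to 189 CPM (median 175) in ependymal-like cells, with no overlap (log2 0.89 ± 0.23, edgeR adjusted p = 0.00192). COL4A6 was at 88.6 to 272 CPM and 80.3 to 175 CPM, and the 2 classes were not separated (log2 0.51 ± 0.27, edgeR adjusted p = 0.149). In ependymal-like cells, the ciliated lining of the ventricles, 14.6% of thinned cells held a COL4A5 UMI (34.9% unthinned), against 0.097% of glutamatergic neuron-like cells. Pooled choroid plexus epithelial-like cells held COL4A5 at 240 CPM (217 to 264).

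Over the 13 classes with libraries pooled, the collagen IV chains that are neighbours in the RefSeq gene table were compared. Pearson's r of log2(CPM + 1) was 0.919 for COL4A1 with COL4A2 (Spearman 0.897), 0.980 for COL4A3 with COL4A4 (0.995) and 0.894 for COL4A5 with COL4A6 (0.857). The 13 points share their libraries, and chains of different collagen IV pairs were not compared in this way. Chains that assemble together but are not neighbours had lower values, with r of 0.741 (Spearman 0.354) for COL1A1 with COL1A2, and 0.547 (0.360), 0.329 (0.121) and 0.310 (0.0892) for the 3 pairs of collagen IX chains. COL1A1 and the collagen IX chains were also sparser. These are descriptions over 13 points, with no test.

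COL8A1, a short network-forming chain of vessel walls, was held by fibroblast-like cells (13.3 to 118 CPM) and endothelial-like cells (14.5 to 101 CPM), which were not separated (log2 0.10 ± 0.33, edgeR adjusted p = 0.892). COL8A2 (7 UMIs) and COL10A1 (17 UMIs) were too sparse to rank. COL6A3, a chain of the beaded collagen VI filaments, had the largest difference between a top and a second class among the ranked chains. It stood at 268 to 886 CPM (median 398; mean 451 ± 226, SD, n = 6) in fibroblast-like cells and at a mean of 2.78 CPM in endothelial-like cells (log2 7.03 ± 0.44, edgeR adjusted p = 1.61e-18). Fibroblast-like cells, 434 of 44344 cells, contributed 79.1% of all COL6A3 UMIs. COL6A6 was top in ependymal-like cells at 30.1 to 65.6 CPM, next to a mean of 21.0 CPM in endothelial-like cells (log2 0.68 ± 0.28, edgeR adjusted p = 0.0393). COL6A5 was not ranked, and 57.2% of its 187 UMIs lay in unnamed clusters.

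The ranked fibril-associated collagens had OPC-like, oligodendrocyte-like, ependymal-like, fibroblast-like or GABAergic neuron-like cells as their top class. The 3 collagen IX chains, which coat fibrils in cartilage and the vitreous, were all top and separated in OPC-like cells. COL9A1 stood there at 18.7 to 121 CPM (median 53.6) against at most 21.9 CPM in ependymal-like cells (log2 3.87 ± 0.44, edgeR adjusted p = 3.1e-10). COL9A2 stood at 41.0 to 61.0 CPM and COL9A3 at 23.4 to 79.8 CPM, and for both the next class was oligodendrocyte-like, at a mean of 36.8 and 31.9 CPM. The differences were 0.56 ± 0.22 for COL9A2 (edgeR adjusted p = 0.0329) and 0.72 ± 0.21 for COL9A3 (adjusted p = 0.00518) on the log2 scale. COL9A1 was thus low in oligodendrocyte-like cells, the descendants of OPCs, where its 2 partners were second highest.

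COL20A1, another fibril-associated chain, was the only ranked chain with oligodendrocyte-like cells on top. It was measured at 32.5 to 94.6 CPM (median 50.6) there and at no more than 14.1 CPM in OPC-like cells (mean 8.88 CPM; log2 2.54 ± 0.25, edgeR adjusted p = 1.11e-12), with no overlap. Of oligodendrocyte-like cells thinned to 1000 UMIs, 5.28% held a COL20A1 UMI (9.32% unthinned), against 0 of 414 fibroblast-like cells, which allows a share of cells with a UMI of up to 0.725% at that depth. Unthinned, 1 of 434 fibroblast-like cells (0.230%) held a COL20A1 UMI.

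Ependymal-like cells were the top class of COL16A1, COL21A1 and COL22A1, fibril-associated chains of basement membrane borders, vessel walls and tissue junctions. COL16A1 was at 109 to 351 CPM (median 177) with astrocyte-like cells next at 62.1 to 95.5 CPM (log2 1.496 ± 0.22, edgeR adjusted p = 9.37e-08). COL21A1 was at 76.2 to 218 CPM (median 159) with fibroblast-like cells next at 0 to 111 CPM (log2 1.62 ± 0.32, edgeR adjusted p = 4.58e-05), and COL22A1 was at 0 to 109 CPM (median 42.2; next class mean 9.30 CPM, log2 3.32 ± 0.57, adjusted p = 3.44e-06). All 3 chains were thus separated in the ventricular lining. A COL21A1 UMI was found in 15% of thinned ependymal-like cells (33.4% unthinned), against 0.138% of endothelial-like cells.

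COL12A1, which links fibrils under load, was top and separated in fibroblast-like cells at 29.5 to 350 CPM (median 252), with its lowest value in sevoflurane replicate 2, on 1 UMI. GABAergic neuron-like cells came next at 38.4 to 80.5 CPM (log2 1.87 ± 0.23, edgeR adjusted p = 1.26e-09). COL14A1, a related chain, overlapped between fibroblast-like (6.36 to 106 CPM, mean 58.8) and glutamatergic neuron-like cells (15.9 to 71.5 CPM, mean 53.4), with a log2 difference of −0.23 ± 0.30 (edgeR adjusted p = 0.547). Glutamatergic neuron-like cells, the largest class, held 82.3% of its UMIs. Mural-like cells, which were not ranked, held 0.285% of the COL14A1 UMIs. With no test, their pooled level was above both of these classes, on few UMIs. COL19A1, a chain known from synapse formation in hippocampus, was top and separated in GABAergic neuron-like cells at 226 to 384 CPM (median 330), with glutamatergic neuron-like cells next at 86.0 to 133 CPM (log2 1.48 ± 0.15, edgeR adjusted p = 2.92e-12).

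The membrane-anchored collagens had fibroblast-like or neuron-like cells as their top class. COL13A1, a transmembrane chain of adhesive contacts, was top in fibroblast-like cells at 148 to 446 CPM (median 244), with astrocyte-like cells next at 20.5 to 63.7 CPM (log2 2.64 ± 0.28, edgeR adjusted p = 3.05e-11). COL23A1 had a mean of 76.1 CPM in fibroblast-like cells, from 0 in sevoflurane replicate 2 to 191, and 68.6 CPM in glutamatergic neuron-like cells (24.7 to 90.1), and these were not separated (log2 −0.32 ± 0.33, edgeR adjusted p = 0.444). COL17A1, an epithelial chain, had 99 UMIs and was not ranked.

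COL25A1, the neuronal membrane collagen whose shed part is found in amyloid plaques, had most of its UMIs in glutamatergic neuron-like cells (74.9%) but its highest CPM in GABAergic neuron-like cells. In GABAergic neuron-like cells it was at 477, 763 and 573 CPM in control replicates 1 to 3 and at 603, 865 and 186 CPM in sevoflurane replicates 1 to 3. In glutamatergic neuron-like cells it was at 480, 277 and 416 CPM and at 385, 789 and 10.9 CPM. Sevoflurane replicate 3 was the lowest library in both, and the GABAergic level was separated from the glutamatergic one by a log2 difference of 0.74 ± 0.28 (edgeR adjusted p = 0.0288). Of thinned GABAergic neuron-like cells, 25.7% held a COL25A1 UMI (46.7% unthinned), against 5.59% of choroid plexus epithelial-like cells (15.1% unthinned).

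COL25A1 was also low in the other cells of that library. Sevoflurane replicate 3 was the lowest library in 8 of the 9 classes, for example 16.8 CPM in oligodendrocyte-like cells against 68.4 to 117 in the other libraries, and 5.76 CPM in endothelial-like against 71.6 to 133. The exception was ependymal-like cells, of which this library held 10 (240 CPM). Whether free neuronal RNA was counted in these classes was not tested.

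**Figure D2:**
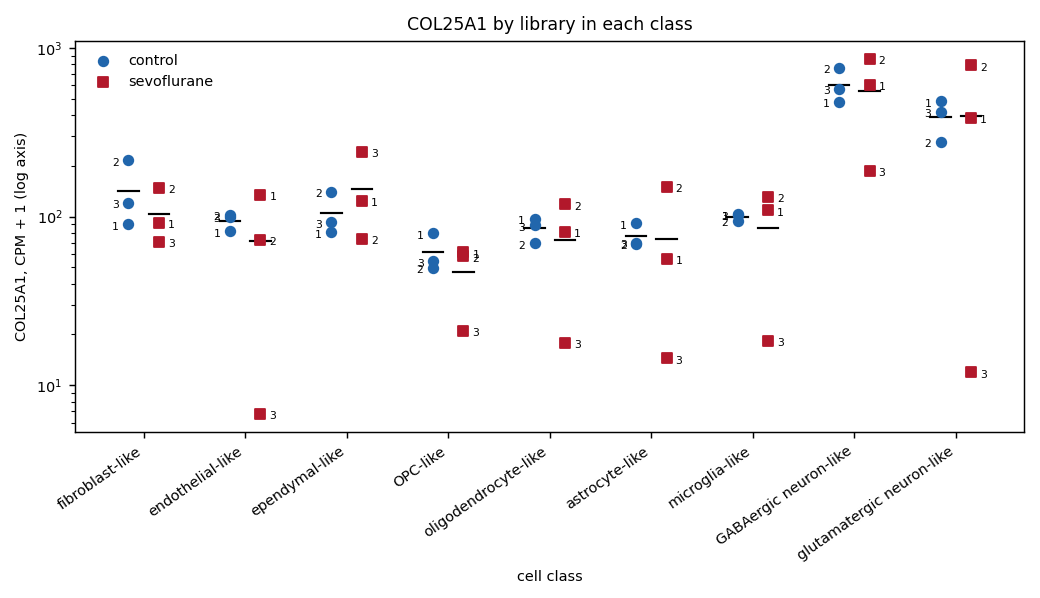
COL25A1 in each of the 9 compared classes (x axis) in CPM + 1 on a log axis. Each point is a library, with its replicate number, and bars are group means over 3 libraries. Sevoflurane replicate 3 lies below the other libraries in every class but the ependymal-like, from 5.76 CPM in endothelial-like to 186 CPM in GABAergic neuron-like cells.

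Among the remaining collagens, COL15A1, a proteoglycan-like chain of vessel basement membranes, was top in fibroblast-like cells at 47.7 to 413 CPM (median 61.0), with every other class at a mean of at most 1.90 CPM (log2 over microglia-like 5.14 ± 0.65, edgeR adjusted p = 6.52e-09). Its maximum came from 14 UMIs in sevoflurane replicate 2. COL26A1 was not separated between fibroblast-like (mean 60.0 CPM) and GABAergic neuron-like cells (38.0 CPM; log2 0.32 ± 0.28, edgeR adjusted p = 0.391), and pooled choroid plexus epithelial-like cells held it at 99.9 CPM. COL28A1, a chain known from peripheral nerve, was found in every class at a mean of 29.7 CPM or more. Of the ranked classes, GABAergic neuron-like cells were top at 90.5 to 116 CPM (median 105), above ependymal-like cells (mean 85.4 CPM; log2 0.52 ± 0.15, edgeR adjusted p = 0.00245). Choroid plexus epithelial-like cells, which were not ranked, held COL28A1 within the GABAergic neuron-like range with libraries pooled.

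Of the laminin alpha chains, which carry the receptor-binding end, LAMA2 was top and separated in fibroblast-like cells. It was at 4358, 3350 and 4971 CPM in control replicates 1 to 3 and at 6079, 6613 and 7571 CPM in sevoflurane replicates 1 to 3. Endothelial-like cells came next at 100 to 584 CPM (median 388; log2 3.74 ± 0.24, edgeR adjusted p = 2.75e-18). Of fibroblast-like cells, 338 of 414 thinned cells (81.6%) held a LAMA2 UMI (84.8% unthinned), against 0.399% of GABAergic neuron-like cells (3.61% unthinned). LAMA2 is the alpha chain whose loss gives congenital muscular dystrophy with white matter changes.

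LAMA2 was also high in pooled mural-like cells, at 1297 CPM (1171 to 1432), and in border-associated macrophage-like cells, at 1064 CPM (894 to 1258). Thinned cells with a LAMA2 UMI made up 60.7% and 43.4% of these classes. The summed fibroblast markers stood at 571 CPM in mural-like cells and 62.2 CPM in border-associated macrophage-like cells, where 13 of 18 were at 0 (DCN and LUM among them), against 9057 CPM in fibroblast-like cells. In endothelial-like cells the fibroblast markers summed to 450 to 805 CPM per library. The part of fibroblast RNA in these levels was not tested.

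LAMA1, the alpha chain of early and meningeal membranes, was top in fibroblast-like cells at 165 to 509 CPM (median 377), with astrocyte-like cells next at 5.86 to 43.2 CPM (log2 4.10 ± 0.32, edgeR adjusted p = 1.99e-15). LAMA4, the alpha chain of vascular membranes, had an unlike order. Of the ranked classes, fibroblast-like cells were top at 344 to 556 CPM (median 488). OPC-like cells were second at 185 to 287 CPM (median 230) and endothelial-like cells next at 108 to 229 CPM. Mural-like cells, which were not ranked, held 2.45% of the LAMA4 UMIs. With no test, their pooled level lay between the OPC-like and fibroblast-like ones. Fibroblast-like cells exceeded OPC-like cells by 0.59 ± 0.20 on the log2 scale (edgeR adjusted p = 0.0171), and OPC-like cells exceeded endothelial-like cells by 0.77 ± 0.20 (adjusted p = 0.00115).

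OPC-like cells held 39.9% of all LAMA4 UMIs. A LAMA4 UMI was found in 19.5% of OPC-like cells thinned to 1000 UMIs (42.7% unthinned), against 0.114% of microglia-like cells (0.435% unthinned). The summed fibroblast markers stood at 114 CPM and the summed endothelial markers at 64.6 CPM in pooled OPC-like cells, against 9057 and 8491 CPM in the classes they mark.

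LAMA3, the alpha chain of epithelial laminins, had its highest mean in glutamatergic neuron-like cells, which held 82.7% of its UMIs. It was there at 219, 78.1 and 164 CPM in controls and 252, 522 and 75.2 CPM with sevoflurane. Endothelial-like cells (87.0 to 252 CPM) and GABAergic neuron-like cells (mean 152 CPM) overlapped them, and the top class was not separated (log2 over endothelial-like 0.63 ± 0.31, edgeR adjusted p = 0.0706). Glutamatergic neuron-like cells were above endothelial-like cells in 2 of the 6 libraries, and without sevoflurane replicate 2, the library at 522 CPM, they were no longer the top class.

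Of the beta chains, LAMB1 was at a mean of 142 CPM in fibroblast-like and 94.3 CPM in glutamatergic neuron-like cells (log2 0.11 ± 0.22, edgeR adjusted p = 0.705), and LAMB2 at 54.7 CPM in endothelial-like and 49.9 CPM in fibroblast-like cells (log2 0.23 ± 0.28, adjusted p = 0.645). LAMB3, the beta partner of LAMA3 in epithelia, had a mean of 27.1 CPM in glutamatergic and 26.8 CPM in GABAergic neuron-like cells (log2 0.11 ± 0.20, edgeR adjusted p = 0.702). LAMB4 was too sparse to rank. LAMC1, the gamma chain of most laminins, was found in every class, from a mean of 42.3 CPM in oligodendrocyte-like to 263 CPM in fibroblast-like cells, and fibroblast-like were not separated from endothelial-like cells (mean 201 CPM; log2 0.25 ± 0.16, edgeR adjusted p = 0.278).

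LAMC3, a gamma chain known from retina and from human cortical malformation, was the only chain with microglia-like cells as its second class beside COL15A1. Fibroblast-like cells held it at 79.8 to 231 CPM (median 164) and microglia-like cells at 31.7 to 227 CPM (median 105), and they were not separated (log2 0.33 ± 0.34, edgeR adjusted p = 0.516). Microglia-like cells exceeded endothelial-like cells (mean 31.1 CPM) by 1.78 ± 0.37 on the log2 scale (edgeR adjusted p = 8.65e-05), and they contributed 41.1% of all LAMC3 UMIs. A LAMC3 UMI was found in 9.89% of thinned microglia-like cells (14.7% unthinned), against 0 of 1926 thinned OPC-like cells, which allows a share of cells with a UMI of up to 0.156% at that depth, and 0 of 1950 unthinned (up to 0.154%). Pooled microglia-like cells held the fibroblast markers at 572 CPM in sum, and pooled mural-like cells held LAMC3 at 160 CPM (118 to 213).

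In the neurons, 12 chains reached 100 CPM in at least 1 neuronal cluster with libraries pooled. Neuronal clusters were those of at least 100 cells with a neuronal list as best marker list, cluster 4 left out. They include clusters 8, 12 and 27, which stayed unnamed and were not part of the neuron classes. TBXAS1 and CSF1R, a microglia marker, were among the genes that lead cluster 8. COL25A1 was highest in GABAergic cluster 20, which TACR1 and GAD2 lead, at 1429 CPM, in glutamatergic cluster 9, which TRHR, LAMA3 and PROX1 lead, at 999 CPM, and in GABAergic cluster 3, which ADARB2 and RELN lead, at 741 CPM. In glutamatergic clusters 14 and 16, from which sevoflurane replicate 3 drew most of its cells, COL25A1 was at 14 and 12 CPM. In clusters that this library shared with the others it was also low, with 95.7 CPM in GABAergic cluster 3, against 532 to 1125 CPM in the other 5 libraries. In GABAergic cluster 20 the same library had 725 CPM against 1107 to 1914.

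LAMA3 was concentrated in glutamatergic cluster 9 (634 CPM) and GABAergic cluster 3 (422 CPM), and it was below 100 CPM in the other neuronal clusters. In cluster 3 its highest value was in sevoflurane replicate 3, at 901 CPM against 197 to 441 CPM. COL24A1 was highest in GABAergic cluster 19, which NXPH1 and LHX6 lead (608 CPM), and glutamatergic cluster 23 (374 CPM), and COL19A1 in GABAergic clusters 19 (594 CPM) and 3 (359 CPM). COL23A1 (466 CPM) and COL14A1 (177 CPM) were highest in glutamatergic cluster 24, and COL5A2 (189 CPM) and COL4A3 (115 CPM) in GABAergic cluster 20. LAMC1 (63 to 194 CPM), LAMB1 (43 to 134 CPM) and COL28A1 (47 to 117 CPM) were found in every neuronal cluster. The clusters were drawn from the same cells, so these values are descriptions.

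**Figure D3:**
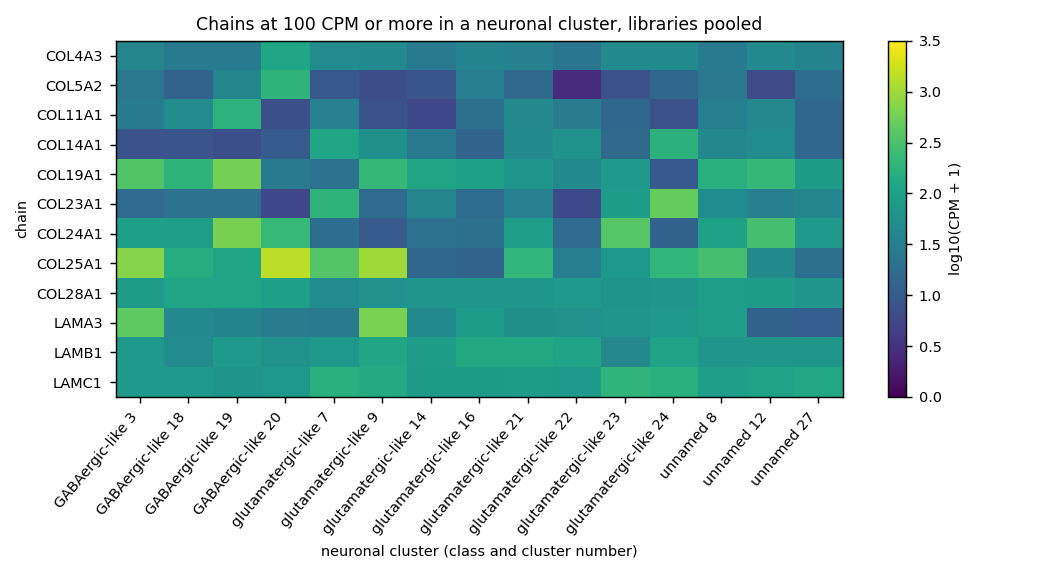
Level of the 12 chains that reached 100 CPM in a neuronal cluster (rows) in each neuronal cluster (columns, class and cluster number), as log10(CPM + 1) with libraries pooled. The columns include unnamed clusters 8, 12 and 27, whose best marker list was a neuronal one. COL25A1 is brightest in GABAergic-like cluster 20 and glutamatergic-like cluster 9, and darkest in glutamatergic-like clusters 14 and 16.

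The second comparison set sevoflurane against oxygen within each class. None of the 50 chains passed edgeR's quasi-likelihood test at an adjusted p under 0.05 in any of the 9 classes, over 225 tests of 44 chains, and none in all cells together. The share of all genes that passed was 0.114% in GABAergic neuron-like cells (0.0687% higher and 0.0458% lower), 0.105% in microglia-like cells (0.0789% and 0.0263%) and 0.022% in OPC-like cells (0.011% and 0.011%). It was 0.0179% in astrocyte-like cells, all lower, and 0.0171% in oligodendrocyte-like cells (0.00856% in each direction). It was 0 in fibroblast-like, endothelial-like, ependymal-like and glutamatergic neuron-like cells and in all cells together. The lowest adjusted p of any chain was 0.212, for COL4A2 in GABAergic neuron-like cells. DESeq2 called 0 chains in the 9 classes and 1 of 47 in all cells together (COL11A1, adjusted p = 0.0204). Of the 19236 genes tested there, it called 139 higher and 279 lower, so 1 chain of 47 was near the share of all genes.

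**Figure D4:**
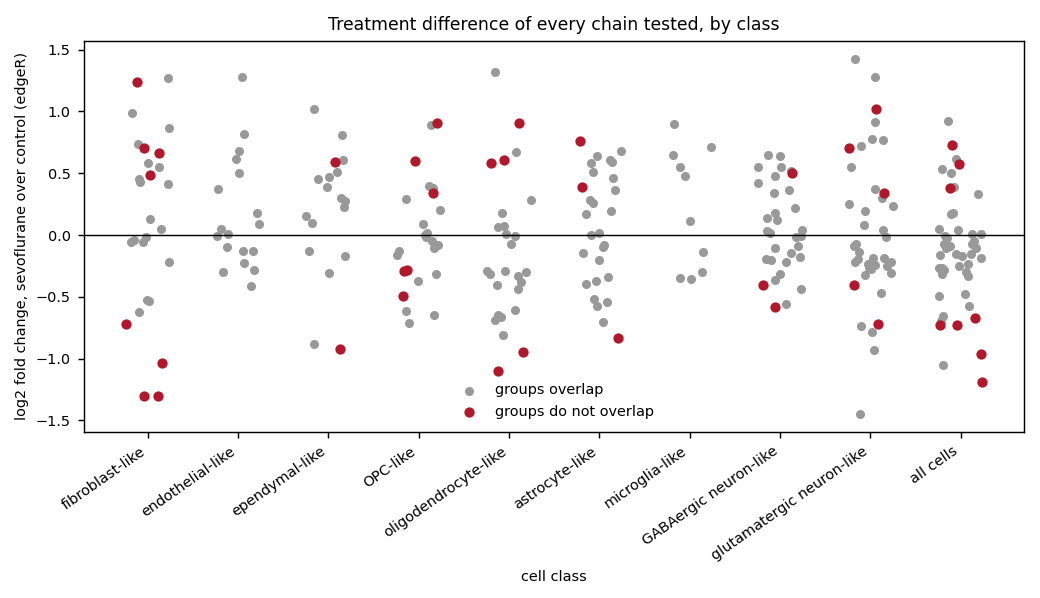
Log2 fold change of sevoflurane over control (y axis, edgeR) for every chain tested in each class and in all cells together (x axis). Red points are chains whose 3 control and 3 sevoflurane libraries do not overlap, and grey points those whose libraries overlap. Fibroblast-like cells have 8 red points, 4 above and 4 below 0, and no point of any class passed the adjusted threshold.

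In fibroblast-like cells, the top class of 20 of the 42 ranked chains, LAMA2, LAMB1 and LAMA4 had higher values with sevoflurane without passing the adjusted test. LAMA2 had a mean of 4226 CPM in controls and 6754 CPM with sevoflurane, and each sevoflurane library was above each control (log2 0.71 ± 0.26, edgeR adjusted p = 1.00). LAMB1, its beta partner, was at 111, 63.7 and 86.4 CPM in controls and at 157, 118 and 318 CPM with sevoflurane (log2 1.24 ± 0.39, edgeR adjusted p = 1.00). Sevoflurane replicate 3 gave the highest LAMB1 value, and without it the difference was 0.68. LAMA4 was at 344, 446 and 419 CPM and at 556, 531 and 553 CPM (log2 0.49 ± 0.23, edgeR adjusted p = 1.00).

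The summed laminins of fibroblast-like cells were 5510, 4981 and 6414 CPM in controls and 7452, 8503 and 9529 CPM with sevoflurane, with LAMA2 the bulk of the sum. Leaving out each library in turn gave LAMA2 differences of 0.55 to 0.82 and none passed the adjusted test. The summed fibroblast markers of the class moved the same way, from 6972 to 9937 CPM in controls to 9459 to 12866 CPM with sevoflurane, and the summed astrocyte markers the other way, from 2752 to 3771 CPM to 1210 to 2877 CPM. Their part in the laminin values was not tested.

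COL4A5 was the collagen with higher values and no overlap, at 260, 310 and 386 CPM in controls and 486, 472 and 502 CPM with sevoflurane (log2 0.66 ± 0.25, edgeR adjusted p = 1.00). Collagens with lower values and no overlap were COL12A1, COL26A1, COL23A1 and COL14A1. COL12A1 was at 282, 350 and 299 CPM in controls and at 202, 29.5 and 223 CPM with sevoflurane (log2 −0.72 ± 0.34). COL23A1 was at 99.1, 191 and 66.5 CPM against 49.5, 0 and 50.9 CPM (log2 −1.30 ± 0.51). COL14A1 was at 69.4, 87.5 and 106 CPM against 53.6, 29.5 and 6.36 CPM (log2 −1.31 ± 0.56), and COL26A1 at 79.3, 103 and 73.1 CPM against 61.8, 29.5 and 12.7 CPM (log2 −1.04 ± 0.51). In sevoflurane replicate 2, 3 UMIs were worth 88.6 CPM, so its low values rest on 0 or 1 UMI. In sevoflurane replicate 3, 3 UMIs were worth 19.1 CPM, so its COL14A1 and COL26A1 values rest on fewer than 3 UMIs. COL6A3, among the 3 chains with most UMIs in the class, overlapped at 391, 286 and 405 CPM against 268, 886 and 470 CPM (log2 0.43 ± 0.38).

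In all, 8 of the 27 chains tested in fibroblast-like cells did not overlap (29.6%, against 11.2% of all genes tested there, 4.55% higher and 6.6% lower), and 6 of 27 had an unadjusted p under 0.05 (22.2%, against 4.68%). The 6 were LAMB1, LAMA2, COL4A5, COL23A1, COL14A1 and COL4A6. The chains were 4 higher and 4 lower, and the median difference of the 27 was 0.13 against 0.01 for all genes, on the log2 scale. COL4A1 had the largest positive value (log2 1.27 ± 0.63), which sevoflurane replicate 2 led at 679 CPM against 53.2 to 172 CPM in the other libraries.

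**Figure D5:**
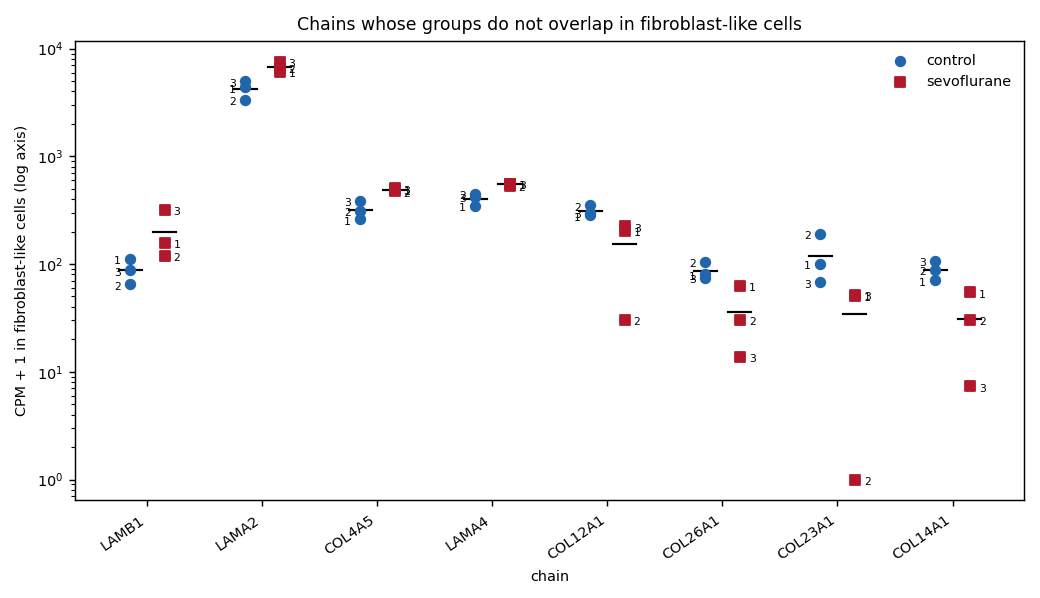
The 8 chains whose control and sevoflurane libraries did not overlap in fibroblast-like cells (x axis), in CPM + 1 on a log axis. Points are libraries with their replicate numbers and bars are group means over 3 libraries. LAMB1, LAMA2, COL4A5 and LAMA4 lie higher with sevoflurane, and COL12A1, COL26A1, COL23A1 and COL14A1 lie lower, with sevoflurane replicate 2 (13 cells) at 0 CPM for COL23A1.

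In endothelial-like cells, none of the 18 chains tested separated the groups (background 10.8%), and 1 had an unadjusted p under 0.05 (COL8A1, log2 1.28, overlapping; background 4.52%). COL4A2 varied more between libraries than between groups, at 831, 452 and 273 CPM in controls and 159, 860 and 136 CPM with sevoflurane (log2 −0.30 ± 0.75). COL24A1 was at 225, 266 and 347 CPM against 396, 138 and 747 CPM (log2 0.68 ± 0.47), and LAMA2 at 100, 498 and 320 CPM against 457, 200 and 584 CPM (log2 0.50 ± 0.54). The groups overlapped for each of these chains. The summed endothelial markers of the class did not overlap, at 8638 to 10091 CPM in controls and 6622 to 7540 CPM with sevoflurane, and their part was not tested.

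Ependymal-like cells had COL21A1 at 173, 218 and 218 CPM in controls and at 146, 76.2 and 109 CPM with sevoflurane, with no overlap (log2 −0.92 ± 0.26, edgeR adjusted p = 0.402). LAMC1 was at 94.7, 91.2 and 78.4 CPM against 118, 152 and 109 CPM (log2 0.59 ± 0.23, edgeR adjusted p = 0.597). COL16A1 was at 156, 174 and 180 CPM against 351, 326 and 109 CPM, where the low value came from the 10 cells of sevoflurane replicate 3 (log2 0.81 ± 0.24, edgeR adjusted p = 0.469, and 0.98 without that library). COL4A5 was at 183, 166 and 186 CPM against 137, 189 and 131 CPM (log2 −0.17 ± 0.22). The summed ependymal markers of the class were also lower with no overlap, at 24880 to 26378 CPM in controls and 20759 to 24207 CPM with sevoflurane, and 0 of the 9 tested had a positive difference. Their part in these values was not tested. Of 18 chains tested, 2 did not overlap, 1 in each direction (background 14%, 6.61% higher and 7.35% lower), and 3 had an unadjusted p under 0.05 (background 7.27%).

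In OPC-like cells, COL9A3 was at 42.9, 23.4 and 42.0 CPM in controls and at 66.6, 62.0 and 79.8 CPM with sevoflurane (log2 0.91 ± 0.24, edgeR adjusted p = 0.370). COL19A1 was at 56.2, 48.8 and 59.1 CPM against 47.4, 28.1 and 43.0 CPM (log2 −0.49 ± 0.23, edgeR adjusted p = 0.807). The 3 chains with most UMIs there did not pass the test. LAMA4 was at 249, 226 and 235 CPM against 287, 185 and 224 CPM (log2 −0.05 ± 0.16). COL11A1 was at 228, 283 and 257 CPM against 238, 247 and 140 CPM (log2 −0.31 ± 0.18), and LAMC1 at 106, 130 and 108 CPM against 94.8, 101 and 90.5 CPM (log2 −0.29 ± 0.15), the latter with no overlap. Of 25 chains tested, 6 did not overlap, 3 in each direction (background 11.8%, 6.81% higher and 4.94% lower), and 2 had an unadjusted p under 0.05 (background 6.29%).

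Oligodendrocyte-like cells had COL11A1 at 17.1, 12.6 and 16.4 CPM in controls and at 9.18, 7.86 and 7.12 CPM with sevoflurane (log2 −0.95 ± 0.24, edgeR adjusted p = 0.457). LAMB3 was at 16.1, 12.6 and 12.5 CPM against 4.59, 5.90 and 8.74 CPM (log2 −1.10 ± 0.32, edgeR adjusted p = 0.472). COL20A1, the chain this class led, overlapped at 71.3, 38.0 and 94.6 CPM against 32.5, 40.3 and 60.9 CPM (log2 −0.61 ± 0.36). COL28A1 was at 78.6, 65.6 and 62.2 CPM against 74.9, 82.1 and 80.3 CPM (log2 0.18 ± 0.15). Of 27 chains tested, 5 did not overlap, 3 higher and 2 lower (background 14%, 8% and 5.97%), and 6 had an unadjusted p under 0.05 (background 7.82%), and their median was −0.29 against 0.01 for all genes. With a library left out, the median ran from −0.40 (without sevoflurane replicate 1) to −0.15 (without sevoflurane replicate 3, which held most of cluster 11). It was −0.19 without control replicate 1 or sevoflurane replicate 2. The count of 6 was 3 of 28 without control replicate 3, where 529 of all 12087 genes were at that level. It was 9 of 29 without sevoflurane replicate 3, where 1337 of all 12040 genes were.

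Astrocyte-like cells had COL5A3 at 34.8, 38.3 and 37.5 CPM in controls and at 73.7, 64.4 and 50.4 CPM with sevoflurane (log2 0.76 ± 0.18, edgeR adjusted p = 0.398). COL16A1 was at 66.7, 62.1 and 72.7 CPM against 74.2, 95.2 and 95.5 CPM (log2 0.39 ± 0.16, edgeR adjusted p = 0.692). COL11A1 overlapped at 103, 89.4 and 96.3 CPM against 103, 93.2 and 24.6 CPM, low in sevoflurane replicate 3 alone (log2 −0.40 ± 0.38), and LAMC1 overlapped at 59.2 to 112 CPM over the 6 libraries (log2 −0.20 ± 0.21). Of 28 chains tested, 3 did not overlap, 2 higher and 1 lower (background 12.3%, 6.08% and 6.18%), and 6 had an unadjusted p under 0.05 (background 6.59%). That count of 6 was 1 with the replicate number as a block, 1 with DESeq2 and 2 without control replicate 3. Over all genes the counts in these fits were 606 of 11160, 499 of 11160 and 520 of 11392.

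Microglia-like cells had 10 chains tested, of which 0 were without overlap (background 12.8%) and 0 had an unadjusted p under 0.05 (background 6.56%). LAMC3 spread widely within both groups, at 85.0, 34.9 and 133 CPM in controls and 124, 227 and 31.7 CPM with sevoflurane (log2 0.64 ± 0.56, edgeR adjusted p = 0.934). Its difference was 1.04 without sevoflurane replicate 3 and 0.04 without sevoflurane replicate 2, so single libraries set it. LAMC1 was at 67.5, 98.0 and 67.1 CPM against 79.5, 46.2 and 48.9 CPM (log2 −0.35 ± 0.28).

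GABAergic neuron-like cells had COL4A2 at 62.1, 57.2 and 57.4 CPM in controls and at 44.0, 44.6 and 50.5 CPM with sevoflurane (log2 −0.41 ± 0.12, edgeR adjusted p = 0.212). COL26A1 was at 40.8, 49.9 and 43.0 CPM against 31.2, 38.5 and 24.6 CPM (log2 −0.58 ± 0.18, edgeR adjusted p = 0.239), and COL24A1 at 231, 247 and 142 CPM against 260, 345 and 316 CPM (log2 0.50 ± 0.20, adjusted p = 0.384). These 3 of 32 chains tested were the ones without overlap, 1 higher and 2 lower (9.38%, background 18%, 12.8% higher and 5.26% lower), and with an unadjusted p under 0.05 (background 11.5%). COL19A1, which this class led, overlapped at 321, 326 and 384 CPM against 367, 334 and 226 CPM (log2 −0.22 ± 0.18). COL25A1 differed by −0.20 ± 0.44, and by 0.21 without sevoflurane replicate 3. The summed GABAergic markers of the class were lower with no overlap, at 10991 to 11553 CPM in controls and 7759 to 10276 CPM with sevoflurane, and so were the summed microglia markers in it, at 49.97 to 65.8 CPM and 23.4 to 47.7 CPM. Their part in the chain values was not tested.

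In glutamatergic neuron-like cells, COL25A1 differed by −0.09 ± 1.12 on the log2 scale with all libraries and by 0.48 without sevoflurane replicate 3 (edgeR adjusted p = 0.991 and 0.620). LAMA3 differed by 0.77 ± 0.68, by 0.03 without sevoflurane replicate 2 and by 1.22 without sevoflurane replicate 3, none passing the adjusted test. The share of cluster 9 in a library, from 0 cells to 3052, moved with both chains, and its part was not tested. LAMC1 was at 113, 170 and 150 CPM against 149, 154 and 82.0 CPM (log2 −0.27 ± 0.28). The chains without overlap and with the smallest p were scarce ones, COL8A1 at 2.63, 3.68 and 3.91 CPM against 6.18, 6.00 and 5.71 CPM (log2 0.71 ± 0.23, edgeR adjusted p = 0.649) and COL11A2 at 0.744 to 1.14 CPM against 1.62 to 2.17 CPM (log2 1.02 ± 0.29, adjusted p = 0.620). Of 40 chains tested, 5 did not overlap, 3 higher and 2 lower (background 16.6%, 12.7% and 3.9%), and 3 had an unadjusted p under 0.05 (background 7.15%).

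In all cells together, where fewer cells of a type and less RNA per cell cannot be told apart, COL11A1 was at 46.3, 37.6 and 44.8 CPM in controls and at 26.3, 32.5 and 21.7 CPM with sevoflurane (log2 −0.73 ± 0.17, edgeR adjusted p = 0.338). Glutamatergic neuron-like cells held 31.1% of all COL11A1 UMIs, GABAergic neuron-like cells 22.1%, OPC-like cells 15.4% and astrocyte-like cells 14.0%. The shares of the first 3 classes among cells overlapped between the groups, at 30.4% to 36.7% of control and 34.5% to 53.3% of sevoflurane libraries for glutamatergic, 8.13% to 10.3% and 4.72% to 14.0% for GABAergic neuron-like cells, and 4.399% to 5.101% and 2.84% to 4.50% for OPC-like cells. Astrocyte-like cells were 10.7% to 17.0% of control and 7.66% to 8.57% of sevoflurane libraries, with no overlap. The part of these shares in the COL11A1 values was not tested. COL8A1 was at 3.56, 4.12 and 3.63 CPM against 8.07, 5.57 and 5.74 CPM (log2 0.73 ± 0.21, edgeR adjusted p = 0.368). Of 47 chains tested, 8 did not overlap, 3 higher and 5 lower (background 17.9%, 11.7% and 6.12%), and 6 had an unadjusted p under 0.05 (background 10.1%). Without sevoflurane replicate 3, 13 of 47 chains and 2716 of all 19647 genes tested were at that level. The 3 chains with most UMIs overlapped: COL25A1 at 38.1 to 676 CPM over the 6 libraries, LAMA3 at 68.8 to 407 CPM and COL19A1 at 97.4 to 149 CPM.

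Whether the response of a chain differed between classes was tested with limma on within-library differences of log2 CPM. Over 36 pairs of classes and 598 comparisons, 39 had an unadjusted p under 0.05. The share of all genes at that level was not computed for these pairs, so the count cannot be set against it. At an adjusted p under 0.05, 0 passed, the lowest being 0.514 for COL14A1 between GABAergic neuron-like and astrocyte-like cells. So no chain's difference was shown to be particular to a class.

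The genes that make, modify or bind these chains were read from 5 lists: collagen-processing enzymes, basement membrane partners, collagen and laminin receptors, matrix proteases with their inhibitors, and TGF-beta signal genes. For the enzymes, partners, proteases with inhibitors and TGF-beta signal genes, 0 of 598 tests over the 9 classes and all cells together passed edgeR's adjusted threshold. An unadjusted p under 0.05 was found in 70 of these tests (11.7%), with 17 of 191 for the enzymes, 19 of 100 for the partners, 16 of 146 for the proteases and 18 of 161 for the TGF-beta signal genes. The share of all genes at that level ran from 4.52% in endothelial-like to 11.5% in GABAergic neuron-like cells and was 10.1% in all cells together.

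In fibroblast-like cells, 0 genes of any of the 5 lists passed the adjusted test. Of 6 enzymes tested, 2 had an unadjusted p under 0.05, and the counts were 2 of 8 for TGF-beta signal genes and 0 of 7, 7 and 6 for partners, receptors and proteases, against 4.68% of all genes tested in the class. The median log2 differences were −0.19, −0.26, 0.04, 0.16 and −0.15 in that order, against 0.01 for all genes tested. P3H2, a hydroxylase that modifies collagen IV, was at 49.6, 111 and 46.5 CPM in controls and 128, 295 and 114 CPM with sevoflurane (log2 1.22 ± 0.44, edgeR adjusted p = 1.00). TGFBR2, a receptor of TGF-beta, was at 109, 151 and 133 CPM against 194, 266 and 210 CPM (log2 0.76 ± 0.29, edgeR adjusted p = 1.00), and TGFB2, a ligand, at 156, 422 and 166 CPM against 128, 118 and 25.4 CPM (log2 −1.42 ± 0.54, adjusted p = 1.00). Each sevoflurane library was above each control for P3H2 and TGFBR2, and below each for TGFB2.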

How the data were processed

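The authors deposited whole-number UMI counts for each gene in each barcode, without normalisation. The submitters' processing notes name CASAVA 1.8, Cell Ranger and Seurat, and the version of Cell Ranger is 6.1.1 per the file headers. No source used here gives the genome build or annotation. The members and gene lists were chosen with earlier results of these data known.

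Barcodes with at least 500 UMIs and 200 genes were kept. Doublets were scored with scrublet in scanpy 1.11.5. Sevoflurane replicate 2 had only 0.15% of barcodes marked at its own threshold, so 1 common value, the median over libraries (0.190), was used for all 6. Counts scaled to 10000 per cell were clustered without the members (2000 variable genes, 30 components, 15 neighbours, Leiden resolution 1 in igraph 0.11.9). A cluster was named at a marker score of at least 0.25, with at least 3 markers in at least 10% of cells and a second list below a ratio of 0.6; 9 clusters stayed unnamed. These naming limits were chosen with the files in view.

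Counts were summed per library and class and tested with edgeR 4.0.16 in R 4.3.3 (TMM factors, filterByExpr, quasi-likelihood F test, Benjamini-Hochberg adjustment over all genes tested). Classes were compared with the library as a block. Differences of response were tested with limma 3.58.1, run for every chain measured in both classes, a choice made after the data had been seen. The scripts were tested on simulated data. Shares of cells were taken after thinning each cell to 1000 UMIs; intervals are exact at 95% and cover counting error only, as does the limit of 3 counts for a share of 0. Per-library values are printed for the 3 chains with most UMIs in a class and up to 2 without overlap and with the smallest p, plus the fibroblast-like chains without overlap, which were chosen after their values were seen. Alternatives were DESeq2 1.42.0, no filter, a replicate block, each library left out, resolution 0.5, members kept in clustering, no doublet removal, total scaling and other thinning depths. No sequence is printed, since no table of sequences was used here. The levels of 1 chain and the calls of the receptor list outside fibroblast-like cells are not reported here.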

Additional observations from a re-analysis of the deposited data

How the results depend on the processing

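In the fits of sevoflurane against control, no chain was called in a class or in all cells under the replicate block, when any library was left out (0 in every such fit), with resolution 0.5, with members kept for clustering or without doublet removal. Without the filter on low counts, 1 chain of 46 was called in OPC-like cells (COL9A3, log2 0.90, edgeR adjusted p = 0.0369). There 53 of 20138 genes were called higher and 48 lower. In ependymal-like cells 1 chain of 47 was called (COL21A1, log2 −1.03, adjusted p = 0.0491), where 30 of 20000 genes were called higher and 26 lower. With DESeq2, 1 of 47 was called in all cells together (COL11A1, adjusted p = 0.0204), beside 139 of 19236 genes higher and 279 lower. The cause of these calls was not tested. The count of fibroblast-like chains at an unadjusted p under 0.05 was 6, 3 with the replicate block, and 2 (without control replicate 2) to 7 when a library was left out. Over all genes it was 176 of 3757, 113 of 3757 with the block and 137 of 4229 without control replicate 2. Libraries with the same number deviated from their group means with correlations of −0.281, −0.127 and −0.318. For unlike numbers the correlations ran from −0.108 to 0.282. With 3 libraries in a group these values cannot settle whether the numbers pair the samples, and the labels do not say. The block changed no call at the adjusted threshold, and it took the astrocyte-like count at an unadjusted p under 0.05 from 6 to 1. With a library left out, that count ran from 2 to 5 in astrocyte-like, 3 to 9 in oligodendrocyte-like, 2 to 6 in GABAergic and 2 to 6 in glutamatergic neuron-like, 1 to 4 in OPC-like, 2 to 5 in ependymal-like, 0 to 5 in endothelial-like (5 without sevoflurane replicate 2) and 0 to 2 in microglia-like cells, and from 5 to 13 in all cells together (13 without sevoflurane replicate 3). The count over all genes moved between these fits as well. It was 2716 of 19647 in all cells together without sevoflurane replicate 3, and 623 of 7381 in endothelial-like cells without sevoflurane replicate 2. Of 260 recomputed fold changes of 22 named differences, 257 kept their direction and side of the threshold and 3 passed it in the same direction. The 22 were taken only from chains whose groups did not overlap, so leaving a library out could hardly reverse them. COL25A1 in GABAergic neuron-like cells, whose groups overlapped, was not among them and changed direction without sevoflurane replicate 3. Of 243 recomputed levels, 2 moved beyond 1 SD, both without doublet removal (LAMA4 in OPC-like cells to 183 CPM and COL16A1 in astrocyte-like cells to 61.6 CPM). Most of the 243 were means with 1 library left out. Such a mean cannot move by 1 SD of the same 6 libraries, so those recomputed levels say nothing of stability. The 25 separated chains became 20 to 26 when a library was left out (20 without sevoflurane replicate 1), 23 at resolution 0.5 and 27 with total scaling. At resolution 0.5, COL25A1, COL5A2, COL6A6 and COL9A2 lost their separation, and COL1A1 and LAMA3 gained it. Shares of cells moved with depth, thinned to 500 UMIs and unthinned: COL24A1 18.4% and 47.9%, COL4A3 9.26% and 31.3%, LAMA4 11.2% and 42.7%, LAMC3 4.41% and 14.7%, COL25A1 16.7% and 46.7%, and LAMA2 75.1% at 500 UMIs. Depth limits fibroblast-like values most, with 13 to 168 cells per library, where 3 UMIs were worth 88.6 CPM in sevoflurane replicate 2.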
